A study of Homo sapiens with 6 samples.

Results

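This section describes 10 genes whose proteins bundle, elongate, bend or cap the actin filaments of filopodia, the thin cell protrusions at whose tips the motor protein MYO10 collects. The genes are FSCN1, ENAH, VASP, EVL, RAPH1, BAIAP2, BAIAP2L1, EPS8, CAPZA1 and CAPZB. They were read by every probe set (a group of short probes for the same piece of a transcript, summarised as 1 value) that the array platform's annotation assigns to 1 of these symbols alone, which gave 10 of 19775 genes and 29 of 54675 probe sets. Of the 29, 26 passed a filter on dim probe sets and were tested, among them at least 1 for each of the 10 genes.

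Messenger RNA was measured on Affymetrix arrays in 3 samples of MDA-MB-231 cells with a stable shRNA (short hairpin RNA) to MYOSIN10, today called MYO10, and in 3 samples of the same line with a stable scramble shRNA. MDA-MB-231 is an established line of triple-negative breast cancer with mesenchymal traits, grown here in L-15 medium with serum. The sources used here do not give the number and sequence of the hairpins, the time since their introduction, or whether each line was a clone or a pool. Nor do the labels say whether samples 1 to 3 were separate cultures. The p-values therefore set each difference against the variation among these samples only, which may be technical.

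A filopodium is a tight bundle of parallel actin filaments that grow at their barbed ends, which face the tip. Fascin, the product of FSCN1, crosslinks the filaments. The Ena/VASP proteins (ENAH, VASP and EVL) sit at the barbed ends, speed their growth and keep capping protein away, and lamellipodin, the product of RAPH1, recruits them to the membrane. Capping protein, a heterodimer of an alpha chain such as that of CAPZA1 and the beta chain of CAPZB, stops growth at the same ends, while BAIAP2 (IRSp53) and its relative BAIAP2L1 bend the membrane and EPS8, a partner of BAIAP2, both caps and bundles filaments. MYO10 is known to carry Ena/VASP proteins towards filopodial tips.

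All signals below are on the log2(MAS5 signal + 16) scale, and differences are MYOSIN10 shRNA minus scramble shRNA. The brightest MYO10 probe set, 201976_s_at, had signals of 10.70, 11.39 and 10.64 on MYOSIN10 shRNA arrays 1 to 3, against 11.57, 11.96 and 11.86 on scramble arrays 1 to 3. The groups did not overlap, with a difference of -0.88 ± 0.17 (SE; limma, Benjamini-Hochberg adjusted p = 0.0318 over 33370 probe sets), and the signal on MYOSIN10 shRNA array 2 was closest to the scramble group. Of the other 4 MYO10 probe sets that passed the filter, none passed the test: 216222_s_at, 236718_at and 244350_at had lower means, at -0.74, -0.58 and -0.84 (limma adjusted p = 0.0514, 0.163 and 0.126), and 1554026_a_at a higher one, at 0.31 (adjusted p = 0.647). The call on 201976_s_at ended without MYOSIN10 shRNA array 1 (adjusted p = 0.145) or 3 (0.151) and without scramble array 1 (0.0759) or 3 (0.163). Of the 8 genes listed as typical of this mesenchymal-like line, 7, VIM and CD44 among them, had a brightest probe set between the 95.5th and the 99.7th percentile of the array on average, and SPARC was at the 53.9th. Of these 8, PLAU, a secreted protease, fell by 0.75 (limma adjusted p = 0.00163 over genes). Of the 6 luminal markers listed as likely to be dim, the epithelial cadherin CDH1 and the progesterone receptor PGR did not pass the filter, whereas GATA3, EPCAM, ERBB3 and ESR1 were at the 86.2nd, 73.4th, 63.0th and 61.6th percentile. EPCAM averaged 8.77 in MYOSIN10 shRNA cells and 7.99 in scramble cells without overlap (difference 0.77; limma unadjusted p = 0.00939, adjusted p = 0.159 over genes), and its part in the results was not tested. Of the listed markers of other cell types, 1 of 5 for leukocytes and 4 of 5 for fibroblasts and endothelium passed the filter, and none of these passed the test. The arrays correlated at 0.978 to 0.987 across genes, and scramble array 2 was no closer to its own group (mean r = 0.982) than to the other (0.983), so the member counts, and each member difference that changed by over 1.5 times when it was left out, are also given without it. Because this array was picked from these same values, leaving it out can favour separation of the groups. Then 1466 probe sets were called over the whole array, against 353 with every array in.

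No member probe set passed the test. Of the 26, 0 passed at an adjusted p under 0.05, against 1.06% of all 33370 probe sets (limma with Benjamini-Hochberg adjustment over all of them), and the smallest adjusted p was 0.269. At an unadjusted p under 0.05 there were 5, all with a lower mean in MYOSIN10 shRNA cells, which is 19.2% of the 26 against 13.2% over all probe sets in either direction and 6.44% for the lower direction. These 5 read only ENAH, with 2 probe sets, and CAPZB, with 3, so they stand for 2 messages rather than 5. The arrays of the groups did not overlap for 9 of the 26, against 18.1% over all probe sets. In 8 of the 9 the MYOSIN10 shRNA arrays were the lower ones (8.94% over all), and those 8 read ENAH, BAIAP2L1, CAPZA1 and CAPZB. Without scramble array 2 again 0 of the 26 passed, against 4.39% of all probe sets, and the smallest adjusted p was 0.117 (CAPZB 37012_at). Then 5 of the 26 (19.2%) had an unadjusted p under 0.05, against 17.9% of all probe sets, and only in part the same ones. These were 3 lower (2 of CAPZB and 1 of RAPH1) and 2 higher (1 each of BAIAP2 and FSCN1). The number at an unadjusted p under 0.05 was 3 of the 26 without MYOSIN10 shRNA array 2, against 12.6% of all probe sets. It was 2 of the 26 when any 1 of the other 4 arrays was left out, against 9.44% to 10.3% of all probe sets. The median difference over the 26 was -0.098, against -0.0020 over all probe sets tested. This median counts genes with many probe sets, such as ENAH, more than once. With 1 probe set a gene, the difference was negative for 5 of the 10 genes, and the median was -0.029, against 0.0093 over all genes. With the mean of each gene's kept probe sets it was again negative for 5 of the 10, with a median of -0.025.

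**Figure D1:**
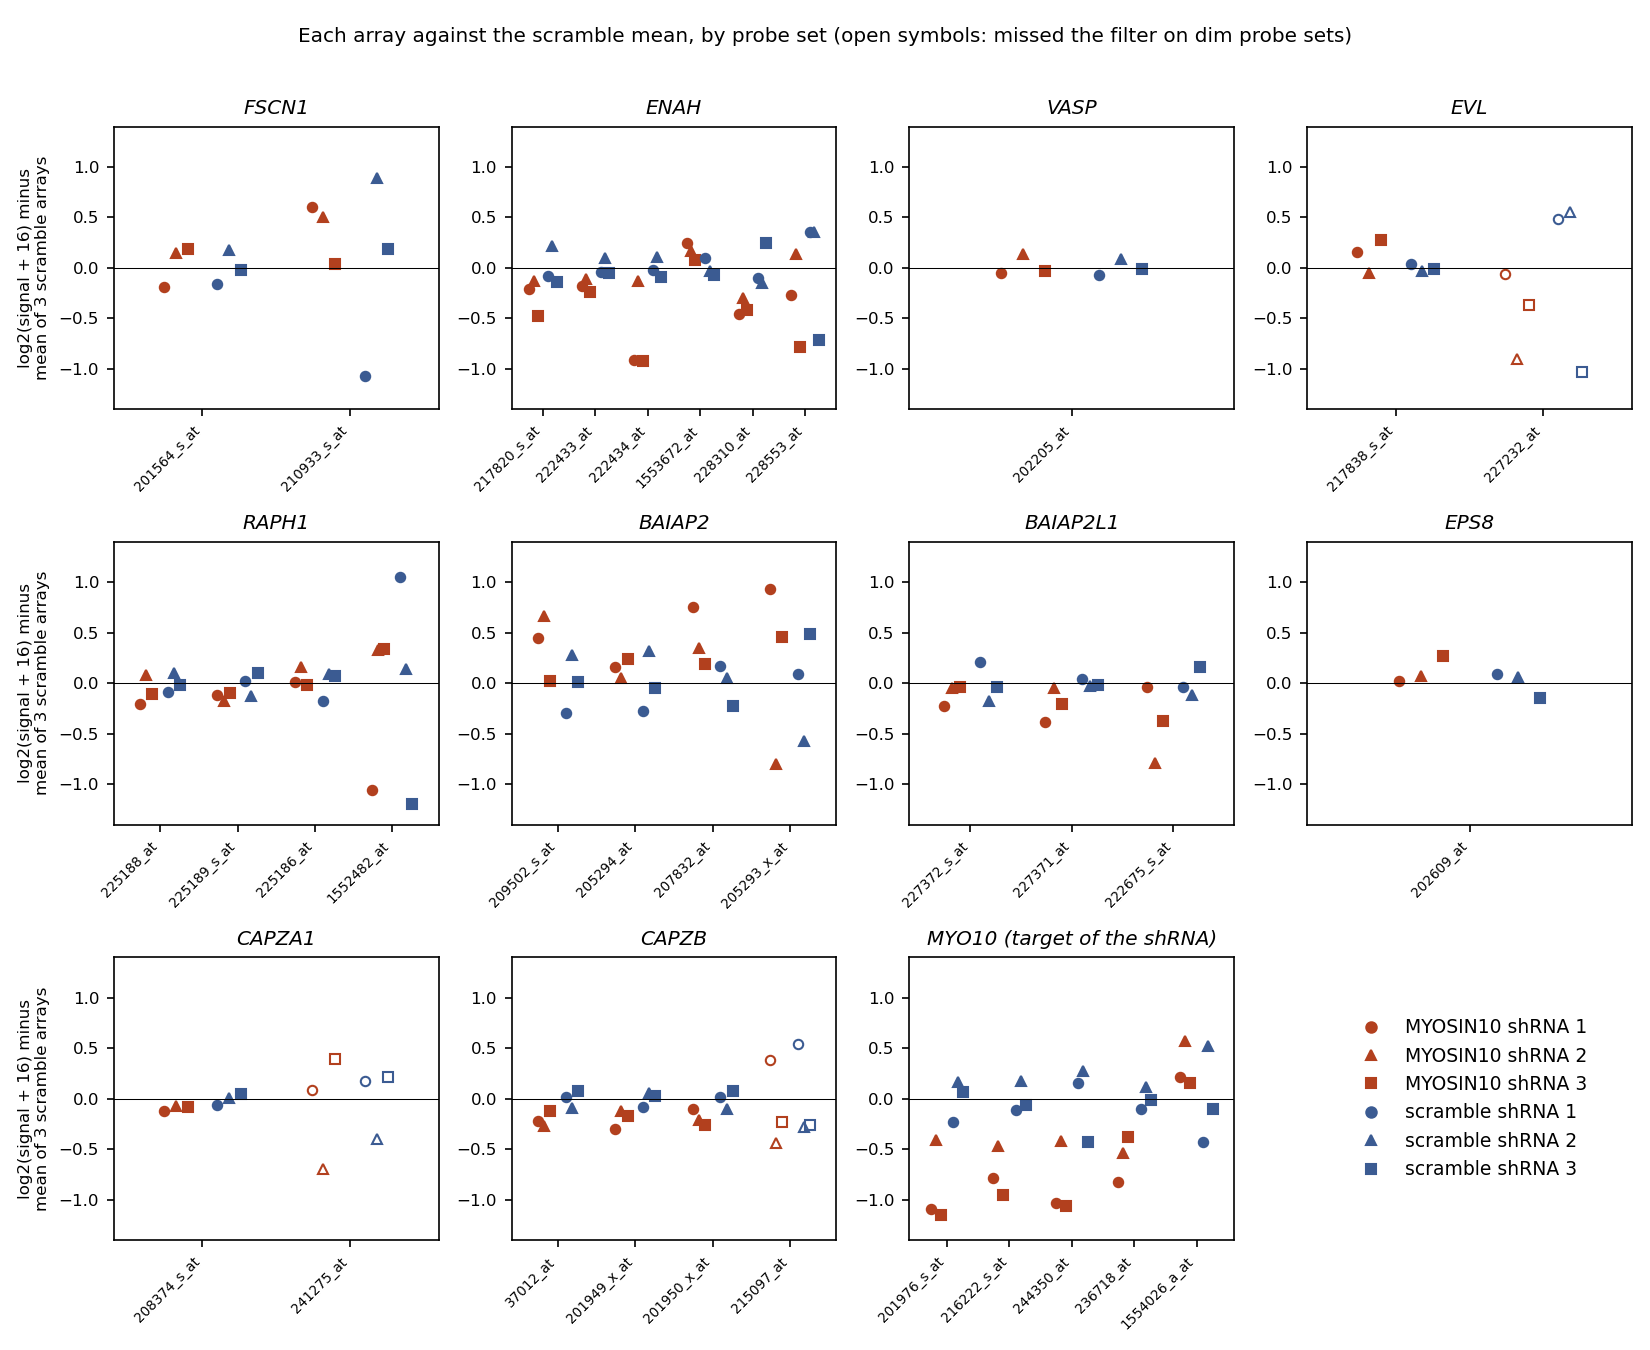
Signal of every member probe set and of MYO10 on each of the 6 arrays, drawn as log2(signal + 16) minus the mean of the 3 scramble arrays, with MYOSIN10 shRNA arrays in red on the left of each pair and scramble arrays in blue on the right. The 3 bright CAPZB probe sets and CAPZA1 208374_s_at show narrow groups that do not overlap, while the second FSCN1 probe set, 210933_s_at, spans from 6.32 to 8.28 within the scramble group alone.

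**Figure D2:**
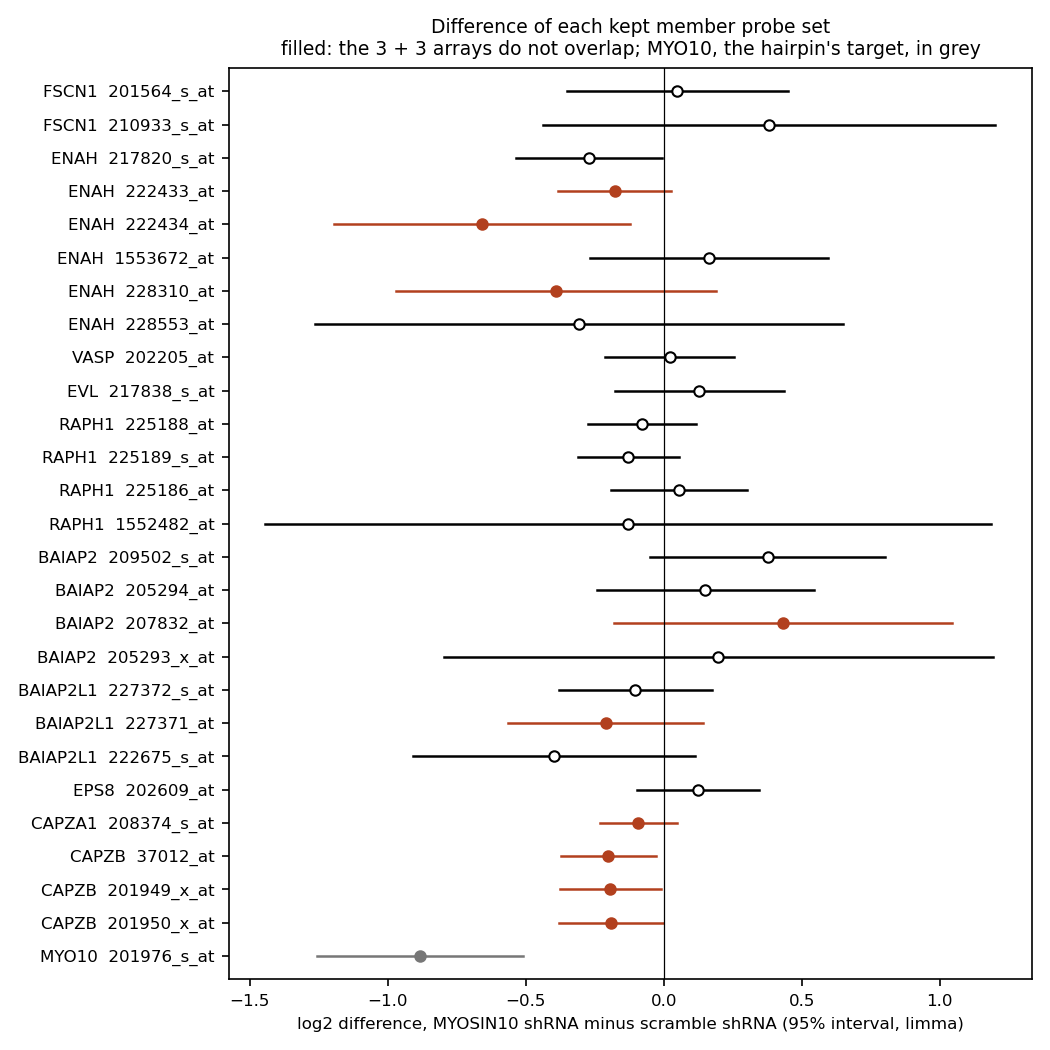
Difference between MYOSIN10 shRNA and scramble shRNA for the 26 tested member probe sets and for MYO10, with limma's 95% interval. Filled points mark probe sets whose arrays do not overlap between the groups, and the intervals of 5 member probe sets, 2 of ENAH and 3 of CAPZB, exclude 0 before adjustment.

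The promoters of ENAH and CAPZB are shown because these were the members with an unadjusted p under 0.05. The stretches are the 250 bases before the transcript start in the RefSeq table of build GRCh38.p14, both on the minus strand, 5′ to 3′, at chr1:225653124-225653373 for ENAH and chr1:19485540-19485789 for CAPZB. Capitals mark the GC box (GGGCGG or its reverse complement CCGCCC) and the CCAAT box (CCAAT or its reverse complement ATTGG).
ENAH: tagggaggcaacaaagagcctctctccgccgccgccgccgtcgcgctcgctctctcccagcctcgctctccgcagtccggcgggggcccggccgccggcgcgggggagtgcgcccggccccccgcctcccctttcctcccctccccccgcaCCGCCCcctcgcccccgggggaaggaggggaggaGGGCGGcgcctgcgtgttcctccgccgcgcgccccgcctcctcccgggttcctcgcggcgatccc
CAPZB: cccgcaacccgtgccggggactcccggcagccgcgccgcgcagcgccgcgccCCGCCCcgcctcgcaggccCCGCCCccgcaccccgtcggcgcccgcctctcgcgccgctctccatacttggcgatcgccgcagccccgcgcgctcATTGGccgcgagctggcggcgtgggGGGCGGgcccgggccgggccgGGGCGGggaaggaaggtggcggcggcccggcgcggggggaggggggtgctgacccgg

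Both stretches are rich in G and C, 80.0% for ENAH and 84.4% for CAPZB. ENAH holds 2 GC boxes and no CCAAT box, and CAPZB holds 4 GC boxes and 1 CCAAT box. Of the 10 members, 8 were matched in the promoter table (the first entry was used where a gene had several), and 7 of these 8 held a GC box, against 42.6% of 35116 promoters of the same length. A CCAAT box stood in 4 of the 8 (32.0% of all promoters), a TATA box (TATAAA on either strand) in 1 (10.7%, BAIAP2) and the CArG box, the element bound by the serum response factor that many actin genes carry, in 0 (1.16%). These are letter matches in a fixed window and were not tied to binding or to the differences.

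Fascin, the bundling protein of filopodia, showed no difference larger than the spread between arrays, and 1 of its probe sets was poorly resolved. FSCN1 probe set 201564_s_at had signals of 7.29, 7.62 and 7.67 on the MYOSIN10 shRNA arrays, against 7.31, 7.66 and 7.46 on the scramble arrays. The groups lay on top of each other, with a difference of 0.05 ± 0.18 (SE; limma adjusted p = 0.945) and a 95% interval of the ratio from 0.784-fold to 1.37-fold, and it was 0.14 with scramble array 2 left out. The other FSCN1 probe set, 210933_s_at, had signals of 8.0, 7.89 and 7.43 on the MYOSIN10 shRNA arrays, against 6.32, 8.28 and 7.57 on the scramble arrays. Scramble array 1 lay well below, and scramble array 2 above, all other arrays. Its difference of 0.38 ± 0.38 (SE; limma adjusted p = 0.735) became -0.15 without scramble array 1 and 0.83 without scramble array 2, so that single arrays set its direction and size. Without both arrays numbered 2 it was 0.77 (adjusted p = 0.279).

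ENAH had lower means on most of its probe sets, while the 1 tested probe set of each of its paralogs VASP and EVL did not. ENAH, which encodes Mena and is read by 6 probe sets, had a lower mean in MYOSIN10 shRNA cells on 5 of them. On the brightest, 217820_s_at, the signals were 10.63, 10.72 and 10.37 on the MYOSIN10 shRNA arrays, against 10.76, 11.06 and 10.70 on the scramble arrays. The groups touched, since MYOSIN10 shRNA array 2 stood just above scramble array 3, and the difference was -0.27 ± 0.12 (SE; limma unadjusted p = 0.0464, adjusted p = 0.371), a ratio of 0.829-fold with a 95% interval of 0.690-fold to 0.996-fold. Without scramble array 2 it was -0.16 (unadjusted p = 0.181). Its unadjusted p under 0.05 was also lost without MYOSIN10 shRNA array 1 or 3 (limma unadjusted p = 0.0611 and 0.215). The same held without scramble array 1 (0.0539) and without the variance trend (0.126). The next brightest, 222433_at, had 10.43, 10.50 and 10.37 on the MYOSIN10 shRNA arrays, against 10.57, 10.71 and 10.55 on the scramble arrays. Here all 3 MYOSIN10 shRNA arrays lay below all 3 scramble arrays, by a small margin, with a difference of -0.18 ± 0.094 (SE; limma adjusted p = 0.458).

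The largest difference of means among the ENAH probe sets, and the smallest adjusted p of any member, belonged to the dimmer 222434_at. Its signals were 6.37, 7.15 and 6.36 on the MYOSIN10 shRNA arrays, against 7.27, 7.39 and 7.20 on the scramble arrays. MYOSIN10 shRNA arrays 1 and 3 were clearly low and array 2 was close to the scramble arrays. Arrays 1 and 3 were also the lowest on MYO10 201976_s_at, but on MYO10 236718_at array 3, at 7.52, was the highest of its group. A link between the ENAH and MYO10 signals was not tested. The difference on ENAH 222434_at was -0.66 ± 0.25 (SE; limma unadjusted p = 0.0203, adjusted p = 0.269), and without both arrays numbered 2 it was -0.87 (adjusted p = 0.0906). It was -0.61 without scramble array 2, and -0.53 and -0.52 without MYOSIN10 shRNA arrays 1 and 3 (unadjusted p = 0.0566, 0.0755 and 0.0756), so the unadjusted p under 0.05 was lost without any of these 3. Probe set 228310_at separated the groups, at -0.39 ± 0.27 (SE; limma adjusted p = 0.586). The dimmest, 228553_at, stood at -0.31 ± 0.44 (SE; limma adjusted p = 0.83) with groups that overlapped, and ran from -0.66 to -0.068 when 1 array was left out (-0.13 without scramble array 2). The exception was 1553672_at, at 0.16 ± 0.20 (SE; limma adjusted p = 0.793). Its MYOSIN10 shRNA signals of 7.11, 7.02 and 6.94 overlapped with scramble signals of 6.95, 6.83 and 6.79. The 6 probe sets therefore ran from -0.66 to 0.16, with a median of -0.29, and their mean taken as 1 gene stood at -0.27 (limma adjusted p = 0.46 over genes).

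VASP, the founding member of the family, had nearly equal means in both groups. Probe set 202205_at, its single one, had signals of 9.75, 9.94 and 9.77 in MYOSIN10 shRNA cells, against 9.72, 9.89 and 9.78 in scramble cells. In each group array 2 was the highest, and the groups overlapped throughout. The difference was 0.02 ± 0.11 (SE; limma adjusted p = 0.96), with a 95% interval of the ratio from 0.864-fold to 1.19-fold, and 0.066 with scramble array 2 left out. EVL, the third paralog, had signals of 8.45, 8.24 and 8.57 on 217838_s_at in MYOSIN10 shRNA cells, against 8.33, 8.26 and 8.28 in scramble cells. MYOSIN10 shRNA arrays 1 and 3 lay above the scramble arrays and array 2 below them, with a difference of 0.13 ± 0.14 (SE; limma adjusted p = 0.768) and an interval from 0.884-fold to 1.35-fold. It was 0.053 without MYOSIN10 shRNA array 3 and 0.22 without array 2. The second EVL probe set, 227232_at, did not pass the filter and had means of 4.88 ± 0.43 and 5.32 ± 0.89 (SD, n = 3 each) in MYOSIN10 shRNA and scramble cells. Whether ENAH differs from VASP or EVL in its response was not tested.

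Lamellipodin, which brings Ena/VASP proteins to the leading edge and to filopodial tips, had small differences with narrow intervals on its bright probe sets. RAPH1 225188_at had signals of 12.18, 12.46 and 12.28 in MYOSIN10 shRNA cells, against 12.30, 12.49 and 12.37 in scramble cells. The groups overlapped, and the difference was -0.08 ± 0.090 (SE; limma adjusted p = 0.778), with an interval of the ratio from 0.826-fold to 1.08-fold. Leaving out MYOSIN10 shRNA array 1 or 2 gave -0.017 and -0.16, and leaving out scramble array 2 gave -0.028. Probe set 225189_s_at stood at -0.13 ± 0.084 (SE; limma adjusted p = 0.565) and 225186_at at 0.05 ± 0.11 (SE; limma adjusted p = 0.891), and with scramble array 2 left out they were -0.19 and 0.10. The fourth, 1552482_at, was dim and scattered, from 4.33 to 5.72 on the MYOSIN10 shRNA arrays and from 4.19 to 6.43 on the scramble arrays. Its difference was -0.13, or -0.057 with scramble array 2 left out, and its interval was wide, from 0.368-fold to 2.28-fold.

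The membrane-bending proteins BAIAP2 and BAIAP2L1 had means on opposite sides of 0, without a passing test on either. BAIAP2, which links CDC42 and Ena/VASP proteins to the membrane, had a higher mean in MYOSIN10 shRNA cells on all 4 of its probe sets. On the brightest, 209502_s_at, the signals were 8.46, 8.68 and 8.03 in MYOSIN10 shRNA cells, against 7.72, 8.29 and 8.03 in scramble cells. The third arrays of both groups coincided and the groups overlapped, with a difference of 0.38 ± 0.20 (SE; limma adjusted p = 0.446) and an interval from 0.966-fold to 1.74-fold. On 207832_at all MYOSIN10 shRNA arrays (6.78, 6.37 and 6.22) lay above all scramble arrays (6.20, 6.08 and 5.80), the lone member probe set with that pattern (9.18% over all probe sets), at 0.43 ± 0.28 (SE; limma adjusted p = 0.564). The other 2, 205294_at and 205293_x_at, stood at 0.15 ± 0.18 (SE; limma adjusted p = 0.791) and 0.20 ± 0.46 (SE; limma adjusted p = 0.904). Leaving out scramble array 1 or 2 gave 0.014 and 0.31 on 205294_at, and the difference on 205293_x_at ran from -0.17 to 0.70 when 1 array was left out (-0.088 without scramble array 2).

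BAIAP2L1, a close relative of BAIAP2, had a lower mean in MYOSIN10 shRNA cells on all 3 probe sets. Its brightest, 227372_s_at, had signals of 9.23, 9.40 and 9.42 in MYOSIN10 shRNA cells, against 9.66, 9.28 and 9.42 in scramble cells. The groups overlapped with a difference of -0.10 ± 0.13 (SE; limma adjusted p = 0.799), which was 0.0012 without scramble array 1. Probe set 227371_at separated the groups, with MYOSIN10 shRNA signals of 7.43, 7.77 and 7.61 against scramble signals of 7.86, 7.79 and 7.80, at -0.21 ± 0.16 (SE; limma adjusted p = 0.646), and 222675_s_at stood at -0.40 ± 0.23 (SE; limma adjusted p = 0.511), with -0.20 without MYOSIN10 shRNA array 2. The difference on 227372_s_at was -0.19 without scramble array 2. EPS8, the capping and bundling partner of BAIAP2, had signals of 10.99, 11.04 and 11.23 on 202609_at in MYOSIN10 shRNA cells, against 11.05, 11.02 and 10.81 in scramble cells. The groups overlapped, with a difference of 0.12 ± 0.10 (SE; limma adjusted p = 0.676) and an interval from 0.934-fold to 1.27-fold. It was 0.050 without MYOSIN10 shRNA array 3 and 0.048 without scramble array 3.

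Capping protein, which competes with Ena/VASP proteins for barbed ends, had slightly lower means for both chains. CAPZB was measured by 3 bright probe sets with nearly equal differences. On 37012_at the signals were 12.36, 12.32 and 12.47 in MYOSIN10 shRNA cells, against 12.60, 12.49 and 12.66 in scramble cells. On 201949_x_at they were 11.58, 11.75 and 11.70 in MYOSIN10 shRNA cells, against 11.79, 11.93 and 11.89 in scramble cells. On 201950_x_at they were 11.46, 11.35 and 11.31 in MYOSIN10 shRNA cells, against 11.59, 11.47 and 11.65 in scramble cells. On each of the 3 every MYOSIN10 shRNA array lay below every scramble array, although the gap between the groups was smaller than the spread within them, and on 201950_x_at MYOSIN10 shRNA array 1 and scramble array 2 almost met.

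The CAPZB differences were -0.20 ± 0.079, -0.19 ± 0.084 and -0.19 ± 0.087 in that order (SE; limma unadjusted p = 0.0256, 0.0392 and 0.048; adjusted p = 0.297, 0.349 and 0.375). The ratio on 37012_at was 0.870-fold, with an interval from 0.772-fold to 0.98-fold. Its unadjusted p under 0.05 was lost without MYOSIN10 shRNA array 1 or 2 or scramble array 1. That of 201949_x_at was lost without MYOSIN10 shRNA array 1 or 3, without scramble array 2 and with median centring. That of 201950_x_at was lost without MYOSIN10 shRNA array 2 or 3, without scramble array 1 and with median centring. All 3 probe sets lost it without scramble array 3 and without the variance trend. These probe sets read 1 message on the same 6 arrays and are not independent, and the suffix _x_at marks probe sets that may also bind other transcripts. The fourth CAPZB probe set, 215097_at, did not pass the filter, with means of 4.51 ± 0.43 and 4.60 ± 0.47 (SD, n = 3 each) in MYOSIN10 shRNA and scramble cells. As a gene read by the mean of its kept probe sets, CAPZB stood at -0.20 (limma adjusted p = 0.235 over genes).

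CAPZA1, the alpha chain, had signals of 13.91, 13.96 and 13.95 on 208374_s_at in MYOSIN10 shRNA cells, against 13.97, 14.04 and 14.08 in scramble cells. The groups did not overlap, but the gap between MYOSIN10 shRNA array 2 and scramble array 1 was minute. The difference was -0.09 ± 0.064 (SE; limma adjusted p = 0.596), the smallest standard error of any member, and its interval ran from 0.851-fold to 1.03-fold. Its other probe set, 241275_at, did not pass the filter, with means of 4.85 ± 0.56 and 4.92 ± 0.34 (SD, n = 3 each) in MYOSIN10 shRNA and scramble cells.

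The intervals give the range of differences that these samples allow, before adjustment and on the scale with 16 added. They can be too narrow if samples 1 to 3 are technical repeats. For 16 of the 26 tested probe sets the 95% interval lay within a 1.5-fold change in either direction, for 20 within a 2-fold change, and each of the 10 genes had at least 1 probe set within 1.5-fold. That last count rests on the tightest probe set of each gene. The brightest of BAIAP2, 209502_s_at, reached 1.745-fold, and FSCN1 210933_s_at reached 2.30-fold. The 10 probe sets with wider intervals were the second FSCN1 probe set, 4 of the ENAH probe sets, 1552482_at of RAPH1, 3 of BAIAP2 and 222675_s_at of BAIAP2L1. The scaling of each array to a common mean hides a change in total RNA per cell, and in bulk samples fewer expressing cells and less RNA per cell cannot be told apart.

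**Figure D3:**
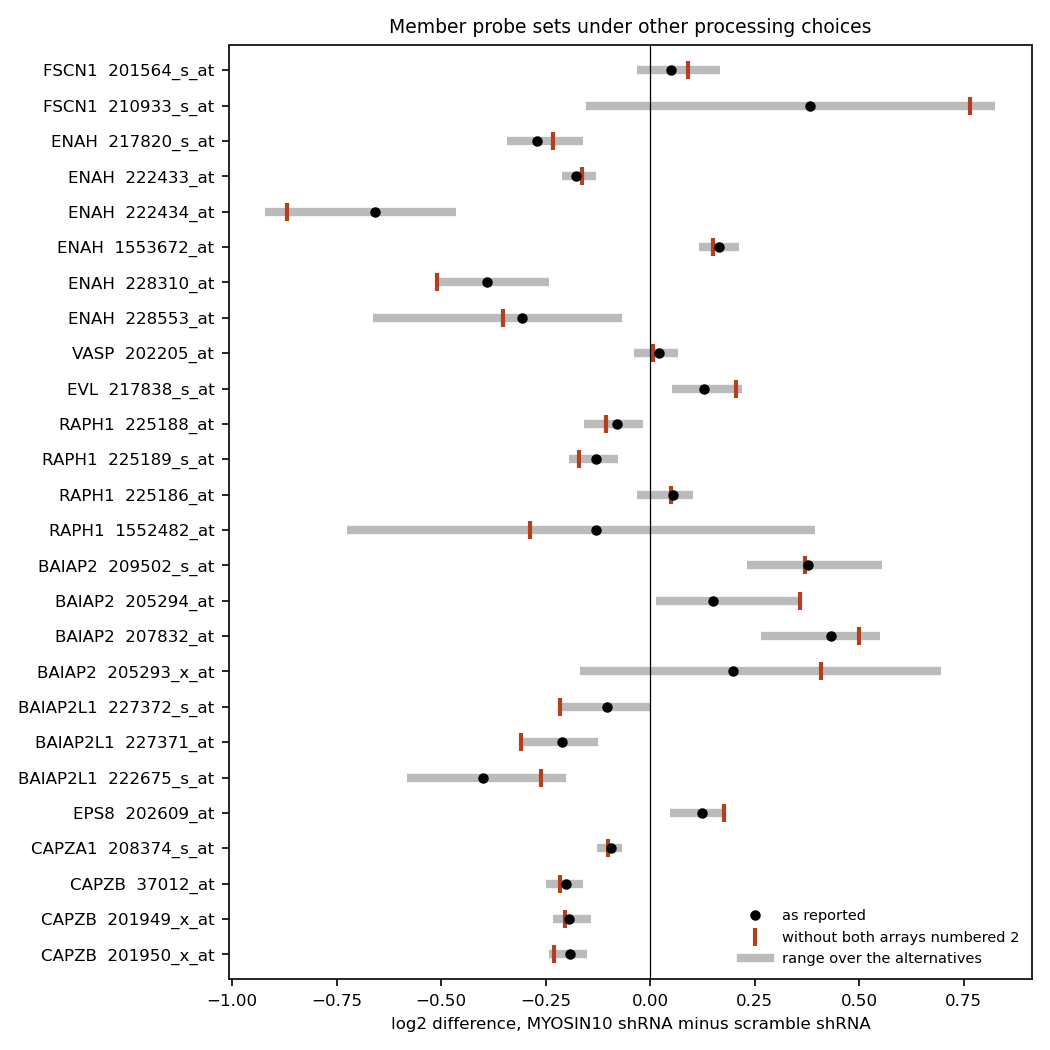
Difference between MYOSIN10 shRNA and scramble shRNA of the 26 tested member probe sets as reported (black points), over up to 17 other processing choices (grey bars, lowest to highest) and without both arrays numbered 2 (red marks). CAPZB, CAPZA1, EPS8, EVL and all ENAH probe sets kept their sign throughout, and FSCN1 210933_s_at ran from -0.15 to 0.83.

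Genes that work beside the members were read from 5 lists, each gene by its brightest probe set that passed the filter. Of 67 listed genes 54 were measured, 1 was called, and 9 had an unadjusted p under 0.05, which is 16.7% against 14.9% of all 14174 genes. The call was ABLIM3, an actin-binding LIM protein placed with the bundlers, and 1.62% of all genes were called. Its signals were 10.08, 9.66 and 9.95 in MYOSIN10 shRNA cells, against 9.10, 8.90 and 9.16 in scramble cells. The groups were well apart, and it rose by 0.84 ± 0.13 (SE; limma adjusted p = 0.00859 over genes). The call ended without MYOSIN10 shRNA array 1 (adjusted p = 0.0664) or 3 (0.0586) and without the variance trend (0.138).

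Of the 10 measured bundlers other than fascin, ABLIM3 rose, 0 fell and 9 did not pass, with a median of 0.037 against 0.0093 over all genes. The plastins PLS1 and LCP1, which crosslink filaments as fascin does, stood on opposite sides at 0.42 and -0.38 (limma adjusted p = 0.247 and 0.296). PLS3, the brightest plastin with means of 13.9 in MYOSIN10 shRNA and 14.0 in scramble cells, stood at -0.13 (limma adjusted p = 0.414). Its groups did not overlap. Of the 12 measured Ena/VASP partners and profilins 0 passed, with a median of -0.010 and 3 at an unadjusted p under 0.05. The smallest p was that of LPP, a zyxin relative that binds Ena/VASP proteins, with signals of 10.63, 10.64 and 10.57 in MYOSIN10 shRNA cells, against 10.99, 10.87 and 11.09 in scramble cells. The groups did not overlap, with a difference of -0.37 ± 0.090 (SE; limma adjusted p = 0.0665), but the mean of the kept LPP probe sets stood at -0.19 (adjusted p = 0.545). TES, a LIM protein that binds Mena, stood at -0.22 ± 0.070 (SE; limma adjusted p = 0.164).

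Of the 13 measured genes of barbed-end capping and its regulators 0 passed and 1 had an unadjusted p under 0.05, with a median of -0.12. ADD3, an adducin, stood at 0.31 ± 0.088 (SE; limma adjusted p = 0.116) and TWF1, a twinfilin that binds capping protein, at -0.20 ± 0.094 (SE; limma adjusted p = 0.338). Of the 7 measured relatives of BAIAP2 and EPS8 0 passed, 0 had an unadjusted p under 0.05, and the median was 0.082. The membrane-bending MTSS2 and the EPS8 relative EPS8L2 had the smallest p-values, at 0.21 and 0.13 (limma adjusted p = 0.678 and 0.695). Of the 12 measured genes of filament turnover and the monomer pool 0 passed and 1 had an unadjusted p under 0.05, with a median of 0.031. The tropomyosin TPM1 stood at -0.23 ± 0.065 (SE; limma adjusted p = 0.108) and the actin monomer-binding TMSB10 at 0.14 ± 0.077 (SE; limma adjusted p = 0.448).

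**Figure D4:**
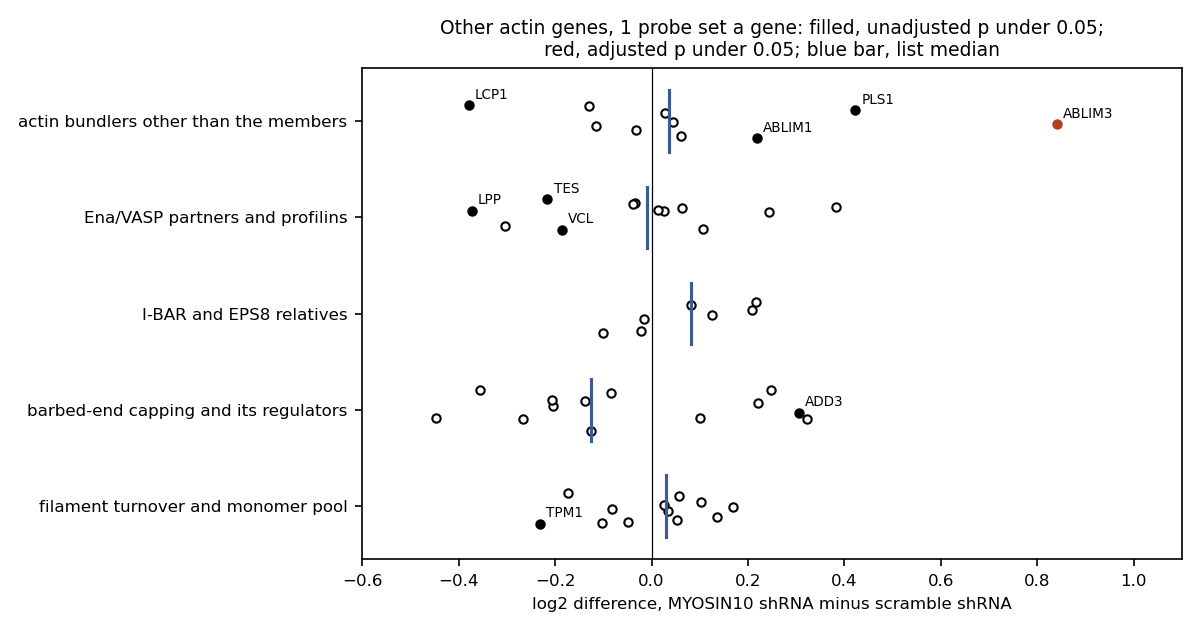
Difference between MYOSIN10 shRNA and scramble shRNA for the 54 measured genes of 5 lists, 1 point a gene, with the list medians as blue bars. ABLIM3 at 0.84 is the lone point past the adjusted threshold, and the medians run from -0.12 to 0.082.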

How the data were processed

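The authors deposited 1 table of log2 signals for 6 arrays, made with MAS5 per the submitters' processing notes, whose version and scaling target the sources used here do not give. The log2 scale was read from the values: the mean with 2% trimmed from each end, after 2 was raised to them, was 500.074 to 500.078 on every array. Arrays carry no read depth, and 3 per group limit the precision.

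Here 16 was added to the linear signal and log2 taken again, which understates changes of dim probe sets. Probe sets at or above their array's 40th percentile on at least 3 arrays were tested with limma 3.58.1 in R 4.3.3 (lmFit, eBayes with a variance trend, group as the sole term, two-sided), adjusted by Benjamini-Hochberg over all 33370. Genes were read by their brightest kept probe set, adjusted over 14174. Symbols came from the platform's annotation, and those outside the members were updated through RefSeq (41043 of 41097). The steps were tested on simulated data. All members were named. Of each other list, called genes or otherwise the 2 with the smallest p were named. In the list with a call PLS1, LCP1 and PLS3 were added after their values were seen. Members and lists were chosen with earlier results of these data known. Replicate numbers correlated at 0.059, 0.163 and 0.04 in their deviations and were not treated as pairs. Arrays of different numbers correlated at -0.111 to 0.066, and the 0.163 of the arrays numbered 2 lay above that range. These values therefore leave pairing by number undecided. Alternatives changed the added constant, filter, scaling, variance model, array weights, replicate block, unit of testing and arrays included. Figures used Python 3.11.15 and matplotlib 3.10.9.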

Additional observations from a re-analysis of the deposited data

How the results depend on the processing

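The count of 0 called members held under all 19 alternatives, in each by limma, where 0% to 4.96% of all probe sets or genes were called. The smallest adjusted p of a member was between 0.0906 and 0.486. At an unadjusted p under 0.05 there were 1 to 6 members, against 9.44% to 18.8% of all probe sets or genes. The 1 was of 10 genes, each read by the mean of its kept probe sets, and the 6 were of 26 probe sets. The number of probe sets called over the whole array, 353 as reported, was 173 with no filter, 0 without a variance trend (3665 then had an unadjusted p under 0.05), 949 with array weights, 891 with the replicate block and 1655 without both arrays numbered 2. It was 229 with 1 probe set a gene and 111 when the kept probe sets of each gene were averaged. Leaving out 1 array gave 59 (scramble array 1) to 1466 (scramble array 2), with 78 for scramble array 3, and 71 and 110 for MYOSIN10 shRNA arrays 1 and 3. The 1 call among the other actin genes was 0 without a variance trend, 2 with array weights, 3 with the replicate block, 7 without both arrays numbered 2, and 0 to 6 without 1 array. LPP was called with array weights (adjusted p = 0.0147), with the replicate block (0.0361), without scramble array 2 (0.0132) and without both arrays numbered 2 (0.00901). Among the members there was no call for the replicate block to end, and among the listed genes ABLIM3 kept its call with it (limma adjusted p = 0.00117). The target probe set of MYO10 was not called with no filter (adjusted p = 0.106), without a variance trend (0.309) or with robust variance (0.0528). The sign turned only when 1 array was left out, in 11 of 437 values of member probe sets, none of them called. Without scramble array 1 these were FSCN1 201564_s_at (-0.032) and 210933_s_at (-0.15), VASP (-0.016), RAPH1 225186_at (-0.032) and 1552482_at (0.40) and BAIAP2L1 227372_s_at (0.0012). Without MYOSIN10 shRNA array 1 they were BAIAP2 205293_x_at (-0.17) and RAPH1 1552482_at (0.33), and BAIAP2 205293_x_at was -0.088 without scramble array 2. VASP was -0.039 without MYOSIN10 shRNA array 2 and FSCN1 201564_s_at -0.020 without MYOSIN10 shRNA array 3. Over all single arrays left out, the values reached -0.72 for RAPH1 1552482_at and 0.10 for 225186_at, 0.17 for FSCN1 201564_s_at and 0.83 for 210933_s_at, 0.066 for VASP, 0.70 for BAIAP2 205293_x_at and -0.19 for BAIAP2L1 227372_s_at. Causes were not tested. Small differences in dim probe sets near the added constant are the least certain.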
